A study of Mus musculus with 10 samples.

Results

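Plekhf2, Tpst1, Crym, Syap1 and Gm45244 are 5 of the 55487 genes counted in mammary epithelial cells (MECs) and in mammary gland macrophages of mice with or without Cebpb in macrophages. They were selected on the genotype difference itself, because it had the same direction in MECs and in macrophages, with no overlap between genotypes in either cell type. The genotype differences of these genes are therefore given as a description, without a test. The difference between macrophages and MECs did not enter the selection and was tested.

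WT mice were Csf1r-Cre-negative Cebpb fl/fl, and CebpbΔM mice (Cebpb-dM in the plots, C/EBPb knockdown in the sample labels) were Csf1r-iCre-positive Cebpb fl/fl. All were 10-wk-old female BALB/c mice in diestrus, and no further treatment is given for them. There were 2 MEC libraries per genotype (WT 1 and 3, CebpbΔM 1 and 3), 2 WT macrophage libraries (4 and 5) and 4 CebpbΔM macrophage libraries (4 to 7). The Csf1r promoter drives Cre in cells that express the CSF1 receptor, so in MECs the genotype is that of neighboring macrophages and other myeloid cells, and Cre was not directed at the epithelium. MECs were isolated by removing lineage-marked cells, and macrophages by positive selection with antibody to F4/80. Nothing in the labels says that the libraries came from separate animals, so the spread between them may be technical.

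Total counts were 25310926 to 27008166 per MEC library and 16935000 to 20174722 per macrophage library. Cebpb was sparsely counted, with 13 and 15 counts in WT macrophages 4 and 5, 16, 13, 5 and 4 in CebpbΔM macrophages 4 to 7, 25 and 28 in WT MECs 1 and 3, and 69 and 42 in CebpbΔM MECs 1 and 3. At these counts the genotypes overlapped in macrophages, and Cebpb does not check the genotype labels. The defining macrophage markers were present in the macrophage libraries, where the 15 macrophage markers summed to 9140 to 17993 CPM (counts scaled to library size), against 232 to 411 CPM in MECs. The 20 epithelial markers summed to 37171 to 45841 CPM in MECs and, in the macrophage libraries, to 12057 and 12051 CPM in WT 4 and 5 and 7694 to 9920 CPM in CebpbΔM. The macrophage libraries thus held epithelial transcripts. Their sum, to which Krt8, Krt18 and Krt19 gave most, was higher in WT without overlap, but the markers did not move together. Of 19 tested, 9 had a higher and 10 a lower level in CebpbΔM macrophages, with log2 fold changes of -0.89 for luminal Krt8 and 1.53 for basal Krt14. Basal Krt5, Krt14, Krt17, Acta2 and Cnn1 were all higher (0.74 to 1.83), as were Elf5, Csn2, Csn3 and Ltf. Luminal Krt8, Krt18, Krt19, Prlr, Esr1, Pgr and Areg were all lower (-0.53 to -1.01), as were Epcam, Cdh1 and Kit. The mean log2 CPM of the list overlapped, at 7.07 and 6.71 in WT 4 and 5 and 6.53 to 7.64 in CebpbΔM.

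The 5 genes belong to different pathways. Plekhf2 encodes phafin-2, an adaptor with a PH and a FYVE domain that binds phosphatidylinositol 3-phosphate (PI3P) on early endosomes. Tpst1 encodes a Golgi tyrosylprotein sulfotransferase, which transfers sulfate from the donor PAPS to tyrosines of secreted and membrane proteins, including chemokine receptors. Crym encodes mu-crystallin, a cytosolic protein that binds thyroid hormone in the presence of NADPH and also has ketimine reductase activity in lysine breakdown. Syap1 encodes a BSD-domain protein linked to phosphorylation of the kinase AKT. Gm45244 is an annotated locus with no established function. Cebpb itself encodes C/EBPβ, a basic leucine zipper factor that works in myeloid differentiation and in the mammary epithelium.

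The genes lie on 5 chromosomes of GRCm38. Plekhf2 (ENSMUSG00000049969) is on the minus strand of chromosome 4 from 10988662 to 11007927. Tpst1 (ENSMUSG00000034118) is on the plus strand of chromosome 5 from 130073326 to 130135729. Crym (ENSMUSG00000030905) is on the minus strand of chromosome 7 from 120186380 to 120202111. Syap1 (ENSMUSG00000031357) is on the minus strand of chromosome X from 162857057 to 162888447. Gm45244 (ENSMUSG00000109807) is a single exon of 2200 bases on the minus strand of chromosome 8 from 46471391 to 46473590, within Acsl1, which runs on the plus strand.

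Of the 5 genes, 1 (Tpst1) had promoter sequence in the RefSeq table used (GRCm38.p6), with 2 start sites. The 250 bases before each are shown because the study deleted a C/EBP factor and Tpst1 differed with genotype in both cell types. Capitals mark the C/EBP-type motif TTNNGNAA, searched on both strands (TTNCNNAA on the other). The letters are those of the reference strain, not of BALB/c.
Tpst1 start site 1, chr5:130073076-130073325, plus strand: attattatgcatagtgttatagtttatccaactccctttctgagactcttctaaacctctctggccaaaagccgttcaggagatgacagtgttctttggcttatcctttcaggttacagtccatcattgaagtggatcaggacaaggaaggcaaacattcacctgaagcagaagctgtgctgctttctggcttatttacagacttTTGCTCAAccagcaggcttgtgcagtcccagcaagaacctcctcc
Tpst1 start site 2, chr5:130079120-130079369, plus strand: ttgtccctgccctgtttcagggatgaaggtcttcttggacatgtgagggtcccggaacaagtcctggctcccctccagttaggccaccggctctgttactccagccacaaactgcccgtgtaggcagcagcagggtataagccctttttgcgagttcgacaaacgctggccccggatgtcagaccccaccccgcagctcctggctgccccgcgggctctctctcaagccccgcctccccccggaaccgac

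The window of start site 1 held 1 match, TTGCTCAA, at 45 to 38 bases before the start, and the window of start site 2 held none. Of 32851 promoter windows of 250 bases, 36.9% held TTNNGNAA on either strand, and 9.56% held the narrower TTGCNNAA (TTNNGCAA on the other strand), which TTGCTCAA also matches. The windows differed in composition, with 44.8% G and C and 1 CpG before start site 1 and 62.8% and 13 CpG before start site 2. The gene counts do not separate the start sites, and the motif match is a description of letters only.

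For Gm45244 the overlap with Acsl1, which encodes a long-chain acyl-CoA synthetase, matters. Of the 2200 bases of Gm45244, 1039 (47.2%) lie opposite annotated exons of Acsl1. The others lie outside these exons but within the span of Acsl1, so they are not attributed to Gm45244 with certainty either. No other annotated exon overlaps Gm45244. The 120 bases at the middle of the 1161 bases that are free of Acsl1 exons, from the GENCODE M21 transcript, read as follows.
Gm45244, chr8:46472951-46473070, minus strand: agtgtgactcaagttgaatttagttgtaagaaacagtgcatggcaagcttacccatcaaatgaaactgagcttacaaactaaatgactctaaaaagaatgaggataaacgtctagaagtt

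Plekhf2, the endosomal adaptor, was higher in CebpbΔM in both cell types. In MECs it was counted at 55.1 and 32.0 CPM in CebpbΔM 1 and 3 and at 16.8 and 20.8 CPM in WT 1 and 3. In macrophages it was at 28.4, 16.02, 13.6 and 17.8 CPM in CebpbΔM 4 to 7 and at 9.63 and 6.95 CPM in WT 4 and 5. CebpbΔM MEC 1 and CebpbΔM macrophage 4 were the highest library of their cell type, and the genotypes did not overlap. The means were 43.5 ± 16.3 CPM (SD, n = 2) and 18.8 ± 2.81 CPM (SD, n = 2) in MECs, and 19.0 ± 6.53 CPM (SD, n = 4) and 8.29 ± 1.90 CPM (SD, n = 2) in macrophages. The log2 fold change, from a fit of each cell type on its own, was 1.23 ± 0.28 (SE) in MECs, or 0.81 without CebpbΔM MEC 1, and 1.17 ± 0.35 (SE) in macrophages. By mean level the order was CebpbΔM MECs, CebpbΔM macrophages, WT MECs and WT macrophages, and the middle groups overlapped.

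**Figure D1:**
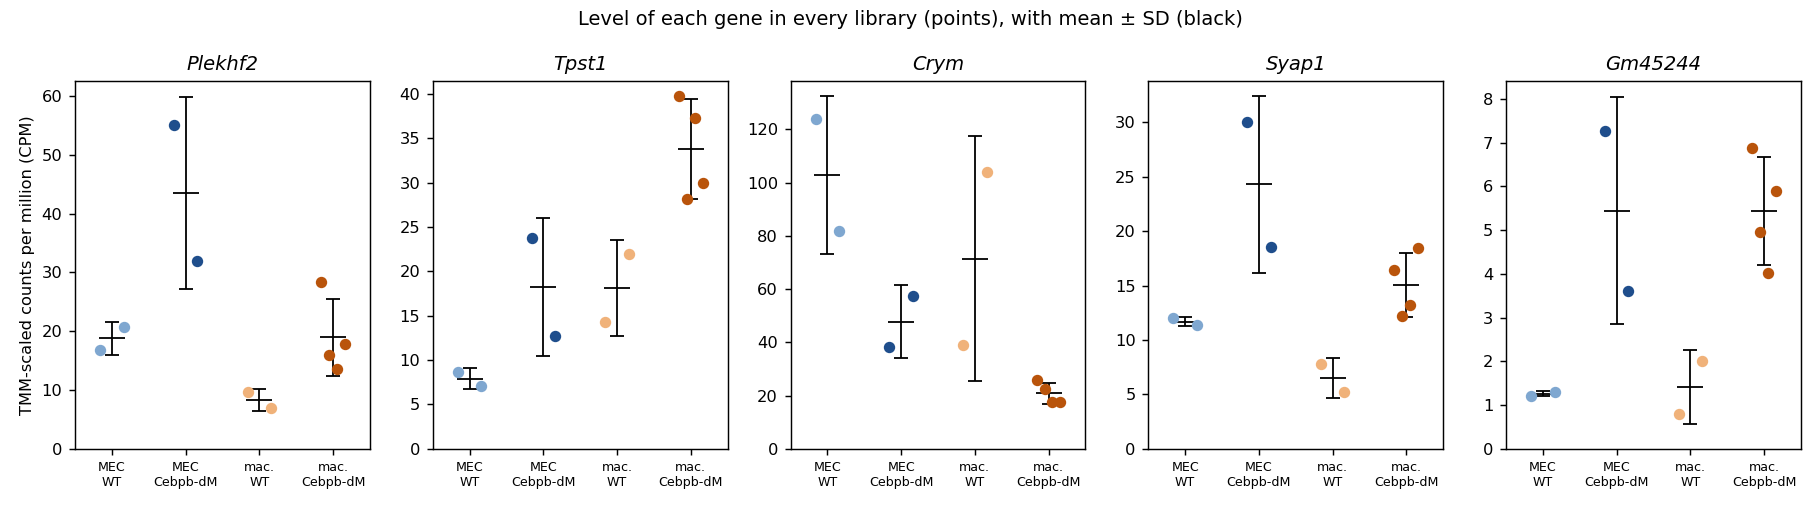
TMM-scaled CPM of each of the 5 genes (vertical axis from 0, a scale of its own per gene) in the 10 libraries, grouped by cell type and genotype. Points are libraries and black lines are the mean ± SD. Within each cell type the CebpbΔM points lie above the WT points for Plekhf2, Tpst1, Syap1 and Gm45244 and below them for Crym, for which WT macrophages 4 and 5 stand at 38.9 and 104 CPM.

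Tpst1, the sulfotransferase gene whose promoters are printed above, was also higher in CebpbΔM. It was at 23.7 and 12.7 CPM in CebpbΔM MECs 1 and 3 and at 8.70 and 7.03 CPM in WT MECs 1 and 3. Macrophages had 39.8, 28.2, 37.3 and 30.0 CPM in CebpbΔM 4 to 7 and 14.2 and 21.9 CPM in WT 4 and 5. The genotypes were closest here, with the lowest CebpbΔM macrophage 1.29-fold above the highest WT macrophage. The means were 18.2 ± 7.78 CPM (SD, n = 2) and 7.86 ± 1.18 CPM (SD, n = 2) in MECs and 33.8 ± 5.61 CPM (SD, n = 4) and 18.1 ± 5.41 CPM (SD, n = 2) in macrophages. The log2 fold change was 1.23 ± 0.32 (SE) in MECs, and 0.74 without CebpbΔM MEC 1. In macrophages it was 0.88 ± 0.26 (SE). CebpbΔM macrophages had the highest mean level of the 4 groups and WT MECs the lowest, and CebpbΔM MECs and WT macrophages overlapped.

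Crym, the thyroid hormone-binding protein gene, was the member that was lower in CebpbΔM. In MECs it was at 38.1 and 57.4 CPM in CebpbΔM 1 and 3 and at 124 and 82.0 CPM in WT 1 and 3. In macrophages it was at 25.9, 22.4, 17.6 and 17.7 CPM in CebpbΔM 4 to 7 and at 38.9 and 104 CPM in WT 4 and 5. The CebpbΔM macrophages lay close together and below both WT libraries, which themselves differed more than the genotypes did at their nearest point (a 1.502-fold gap). The means were 47.8 ± 13.7 CPM (SD, n = 2) in CebpbΔM and 103 ± 29.5 CPM (SD, n = 2) in WT MECs, and 20.9 ± 3.99 CPM (SD, n = 4) and 71.4 ± 46.0 CPM (SD, n = 2) in macrophages. The log2 fold change was -1.08 ± 0.27 (SE) in MECs and -1.80 ± 0.35 (SE) in macrophages, and without WT macrophage 5 the latter was -0.92. WT MECs, WT macrophages and CebpbΔM MECs followed each other in mean level with overlap, and CebpbΔM macrophages were below CebpbΔM MECs without overlap.

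Crym and the summed epithelial marker level were both higher in WT macrophages, whereas the mean log2 CPM of the same markers was not. In WT macrophages 4 and 5, which differed in Crym, the sums were 12057 and 12051 CPM, and the mean log2 CPM was 7.07 and 6.71. With the mean log2 CPM of the markers as a covariate, the macrophage log2 fold change of Crym was -1.84, and those of Plekhf2, Tpst1, Syap1 and Gm45244 were 1.08, 0.86, 1.19 and 1.91. Luminal markers such as Krt8 were lower in CebpbΔM, like Crym, and basal ones such as Krt14 were higher. A mean over both cannot account for a luminal difference alone, so nothing is concluded from this fit. WT macrophages had 28.8% of the summed epithelial marker level of WT MECs, and the median over 18 markers at 1 CPM or more in MECs was 28.1%. They had 69.4% of the Crym of WT MECs, 44.2% of the Plekhf2, 55.4% of the Syap1, 111% of the Gm45244 and 230% of the Tpst1. Single markers differed widely, with Esr1 at 87.6 CPM in WT MECs and 74.3 CPM in WT macrophages, and Krt14 at 2242 and 120 CPM. The shares of Crym, Plekhf2 and Syap1 lay between those of Esr1 and Krt14. In CebpbΔM the epithelial markers stood at 21.4% and the 5 genes between 43.6% (Plekhf2) and 185% (Tpst1). In bulk RNA, fewer cells of a type and less RNA per cell cannot be told apart. The part of epithelial transcripts in these levels and fold changes was not tested.

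Syap1, linked to AKT phosphorylation, was higher in CebpbΔM. It was at 30.0 and 18.6 CPM in CebpbΔM MECs 1 and 3 and at 12.02 and 11.4 CPM in WT MECs 1 and 3. Macrophages had 16.5, 12.2, 13.2 and 18.5 CPM in CebpbΔM 4 to 7 and 7.77 and 5.19 CPM in WT 4 and 5. None of the 4 groups overlapped with the next, in the order CebpbΔM MECs (24.3 ± 8.12 CPM, SD, n = 2), CebpbΔM macrophages (15.1 ± 2.92 CPM, SD, n = 4), WT MECs (11.7 ± 0.453 CPM, SD, n = 2) and WT macrophages (6.48 ± 1.83 CPM, SD, n = 2). The gaps on either side of CebpbΔM macrophages were narrow. CebpbΔM MEC 3 was at 18.57 CPM against 18.50 CPM in CebpbΔM macrophage 7, and CebpbΔM macrophage 5 at 12.18 CPM against 12.02 CPM in WT MEC 1. The log2 fold change was 1.07 ± 0.28 (SE) in MECs, or 0.71 without CebpbΔM MEC 1, and 1.19 ± 0.31 (SE) in macrophages.

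Gm45244 had the lowest level per length and the highest fold change of the 5. Its counts were 179 and 93 in CebpbΔM MECs 1 and 3, 30 and 32 in WT MECs 1 and 3, 135, 102, 74 and 98 in CebpbΔM macrophages 4 to 7, and 16 and 42 in WT macrophages 4 and 5. These are 7.28 and 3.61 CPM against 1.21 and 1.30 CPM in MECs, and 6.88, 4.97, 4.02 and 5.89 CPM against 0.803 and 1.999 CPM in macrophages. Its mean levels in the cell types were close, at 5.44 ± 2.59 CPM (SD, n = 2) in CebpbΔM MECs and 5.44 ± 1.23 CPM (SD, n = 4) in CebpbΔM macrophages, and at 1.26 ± 0.0610 CPM (SD, n = 2) and 1.40 ± 0.846 CPM (SD, n = 2) in the WT groups. The log2 fold change was 2.12 ± 0.44 (SE) in MECs, or 1.56 without CebpbΔM MEC 1. In macrophages it was 1.92 ± 0.52 (SE), or 1.41 without WT macrophage 4 and 2.73 without WT macrophage 5. Per kilobase of exon, the WT means were 0.571 CPM in MECs and 0.637 CPM in macrophages, against 30.3 and 21.1 CPM for Crym, 6.18 and 2.73 CPM for Plekhf2, 4.97 and 2.76 CPM for Syap1 and 2.82 and 6.48 CPM for Tpst1.

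The strand of the reads limits what Gm45244 counts mean. Counting was set to the reverse strand. Nevertheless, for 32 single-exon genes that lie wholly within an exon of a gene on the opposite strand with 5000 counts or more, the count per base had a median of 0.660 of that of the host gene, so reads from the strands were not well separated. Acsl1 was at 46.1 and 36.9 CPM in CebpbΔM MECs 1 and 3 and at 41.4 and 42.8 CPM in WT MECs 1 and 3, with a log2 fold change of -0.01 ± 0.22 (SE). In macrophages Acsl1 was at 76.2, 50.6, 38.2 and 32.0 CPM in CebpbΔM 4 to 7 and at 21.3 and 25.3 CPM in WT 4 and 5, a log2 fold change of 1.05 ± 0.35 (SE). Gm45244 counts were 15.8% and 9.80% of Acsl1 counts in CebpbΔM MECs and 2.93% and 3.04% in WT MECs. In macrophages they were 9.03% to 18.4% in CebpbΔM and 3.77% and 7.89% in WT, so the ratio did not overlap between genotypes in either cell type. Reads of Gm45244 and Acsl1 cannot be told apart where their exons overlap. The other 1161 bases of Gm45244 also lie within the span of Acsl1, so reads there cannot be assigned to Gm45244 with certainty.

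**Figure D2:**
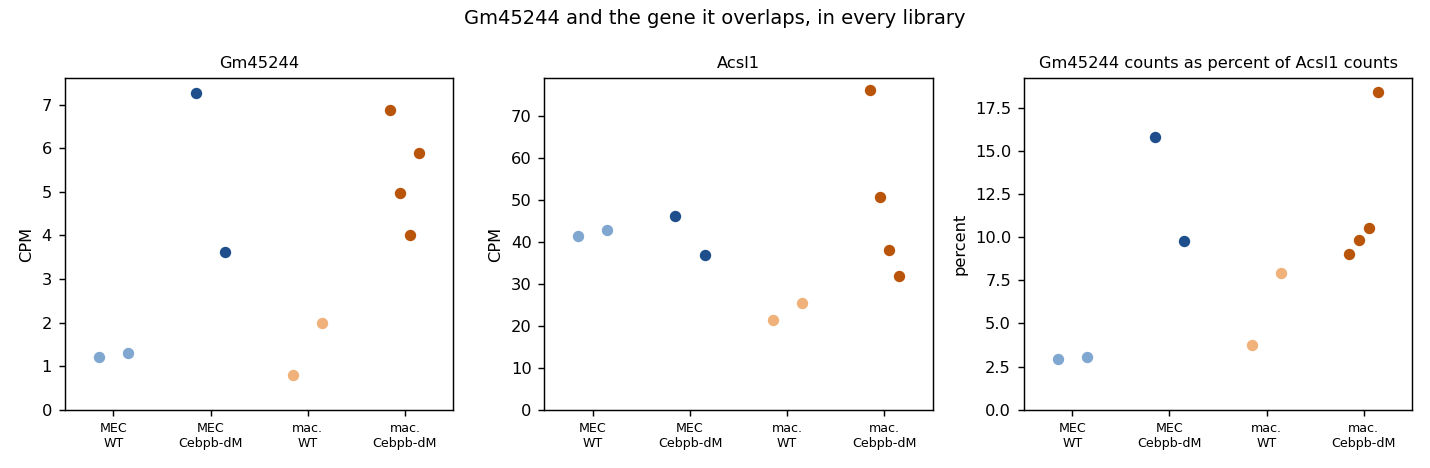
CPM of Gm45244 and of Acsl1, and Gm45244 counts as a percentage of Acsl1 counts (vertical axes from 0), in each of the 10 libraries by cell type and genotype. In MECs Acsl1 lies between 36.9 and 46.1 CPM in both genotypes while Gm45244 is at 1.21 and 1.30 CPM in WT and 3.61 and 7.28 CPM in CebpbΔM. In macrophages Acsl1 is higher in all CebpbΔM libraries as well.

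In MECs the libraries did not contribute alike. CebpbΔM MEC 1 was farther from the WT mean than CebpbΔM MEC 3 for all 5 genes, on the log2 scale. The same library was the farther of the pair for 55.4% of all genes tested in MECs and for 58.9% of the 4508 whose genotypes did not overlap. In macrophages the farthest CebpbΔM library was 4 for 3 of the genes, and 6 and 7 for 1 each. Library 4 was the farthest for 28.2% of all genes tested in macrophages and for 23.3% of the 3332 whose genotypes did not overlap. Among MECs the sum of the erythroid markers was also highest in CebpbΔM MEC 1, at 139 CPM. It was 62.3 CPM in CebpbΔM MEC 3 and 31.6 and 37.6 CPM in WT MECs. The difference was that of Hba-a1 (log2 fold change 2.37 ± 0.40, SE), while the other 4 markers had -0.14 to 0.23, and its part in the result was not tested. In macrophages the erythroid sum was 32.9 to 62.5 CPM in CebpbΔM and 95.9 and 27.7 CPM in WT, with overlap.

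Across all genes, shared direction between the cell types was near even. Of 15268 genes tested in both cell types, 7731 (50.6%) had the same sign of fold change. Genotypes did not overlap in 28.7% of genes tested in MECs and in 18.7% of those tested in macrophages. Both conditions with the same sign held for 411 genes, or 2.69%, of which 226 were higher and 185 lower in CebpbΔM. A further 359 genes did not overlap in either cell type but had opposite signs. The selection took the 5 genes from these 411, so their presence there says nothing more.

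**Figure D3:**
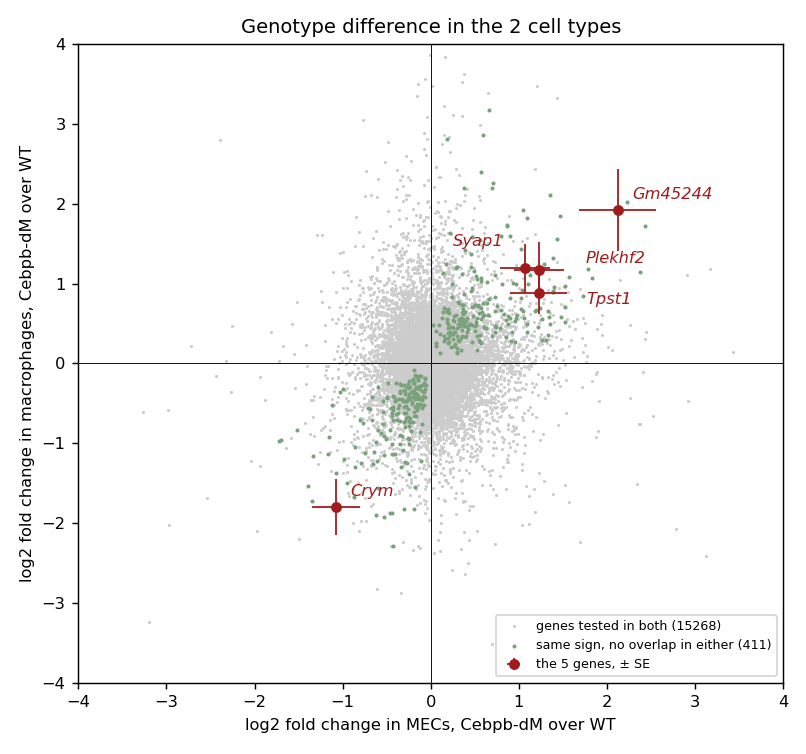
Log2 fold change of CebpbΔM over WT in MECs (horizontal) and in macrophages (vertical) for the 15268 genes tested in both, with the 411 genes of same sign and no overlap in green and the 5 genes in red with their SE. Gm45244 lies at 2.12 and 1.92, and Crym is the member in the lower left, at -1.08 and -1.80. The axes end at 4, beyond which 32 genes lie.

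By the smaller of the 2 absolute log2 fold changes, Gm45244 ranked 2, Plekhf2 12, Crym 19, Syap1 22 and Tpst1 40 among the 411. The 10 genes with the largest value were Gm15747, Gm45244, Gm43137, Efna3, Tmem150c, Ankle1, Pcbd2, Bub1b, Nsmce3 and Kbtbd11. Of these, Bub1b, a mitotic checkpoint kinase, had a mean of 12.3 CPM and log2 fold changes of -1.35 in MECs and -1.72 in macrophages, and Ankle1, an endonuclease gene, had -1.39 and -1.53 at 2.54 CPM. The other 8 were higher in CebpbΔM and, apart from Nsmce3 (6.92 CPM, 1.38 and 1.31), which encodes a subunit of the SMC5/6 complex, and Kbtbd11 (4.22 CPM, 1.28 and 1.25), had means between 1.09 and 3.80 CPM. Efna3, an ephrin ligand gene, had 1.47 and 1.85 at 1.56 CPM. The means of the remaining members were 21.7 CPM for Plekhf2, 52.8 CPM for Crym, 14.5 CPM for Syap1 and 22.4 CPM for Tpst1. The absolute log2 fold change was also divided by its SE in each cell type. By the smaller of these 2 ratios, Crym, Syap1, Gm45244, Tpst1 and Plekhf2 had ranks 1, 2, 3, 5 and 7, with Rprd1b at 4 and Lamp1 at 6. Both rankings use the genotype differences that selected the members, and nothing is read from them.

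Over the whole table, the genotype comparison made few calls. With edgeR's quasi-likelihood (QL) test and a Benjamini–Hochberg adjusted P of 0.05 or less, 8 of 15698 genes passed in MECs (0.051%) and none was among the 5. The MEC count was 337 without CebpbΔM 3 and 2 without WT 3. In macrophages 0 of 17772 genes passed (0%), 1534 had an unadjusted P under 0.05, and the likelihood ratio test and DESeq2 called 138 and 201. The likelihood ratio test, which the study used, called 179 genes in MECs (1.14%), with Plekhf2, Crym and Gm45244 among them, and in macrophages its 138 genes (0.777%) included Crym. As the members were selected on this contrast, nothing is read from their share. The log2 fold change in macrophages minus that in MECs was -0.02 ± 0.51 (SE) for Plekhf2, -0.31 ± 0.44 for Tpst1, -0.67 ± 0.54 for Crym, 0.16 ± 0.43 for Syap1 and -0.16 ± 0.70 for Gm45244 in a fit of all 10 libraries.

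Between cell types, which the selection did not use, Plekhf2, Crym and Syap1 were lower in macrophages than in MECs, Tpst1 was higher, and no difference was detected for Gm45244. The contrast took the mean over genotypes in a fit of all 10 libraries with the QL test, and 8163 of 18323 genes passed (44.6%), 4528 higher in macrophages (24.7%) and 3635 lower (19.8%), so the 4 members of 5 that passed stand against this high background. The log2 difference was -1.19 ± 0.25 (SE) for Plekhf2 (edgeR adjusted P = 0.00265) and 1.05 ± 0.23 (SE) for Tpst1 (edgeR adjusted P = 0.00333). It was -0.86 ± 0.27 (SE) for Crym (edgeR adjusted P = 0.0236) and -0.77 ± 0.21 (SE) for Syap1 (edgeR adjusted P = 0.0131). For Gm45244 it was 0.08 ± 0.35 (SE, edgeR adjusted P = 0.873). Plekhf2 was 2.28-fold lower and Tpst1 2.06-fold higher in macrophages.

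**Figure D4:**
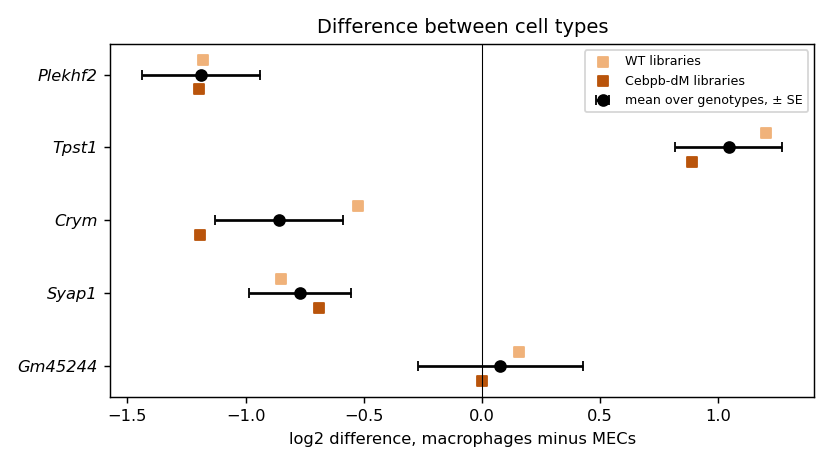
Log2 difference, macrophages minus MECs (horizontal), for the 5 genes, as the mean over genotypes ± SE (black) and within WT or CebpbΔM libraries (squares). Plekhf2 lies at -1.19 and Tpst1 at 1.05 with both genotypes on the same side of 0. Crym is at -0.53 in WT and -1.19 in CebpbΔM.

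Plekhf2 and Tpst1 also passed within each genotype, with log2 differences of -1.18 and 1.20 in WT (edgeR adjusted P = 0.0437 and 0.0252) and -1.20 and 0.89 in CebpbΔM (edgeR adjusted P = 0.0125 and 0.0402). Crym passed in CebpbΔM (-1.19, edgeR adjusted P = 0.0213) and not in WT (-0.53, edgeR adjusted P = 0.380), and the difference between these was not tested. Crym no longer passed without CebpbΔM MEC 3 (-0.70), WT MEC 1 (-0.70) or WT macrophage 4 (-0.56). Syap1 passed in neither genotype alone (-0.85 and -0.69), nor without CebpbΔM MEC 1 (-0.58) or WT macrophage 5 (-0.61). Cell type, isolation, library numbering and count table coincide, and their parts in these differences cannot be told apart. The epithelial transcripts in the macrophage libraries also bear on each of these levels, and their part was not tested.

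The correlations of the 5 genes between libraries were weaker for every pair once genotype was removed. On log2 CPM centered within each cell type, over 10 libraries, Plekhf2, Tpst1, Syap1 and Gm45244 had Pearson's r of 0.821 to 0.937 with each other, and Crym had -0.649 to -0.909 with them. These values share the genotype difference that selected the genes. Centered within each of the 4 groups, the same 10 libraries gave 0.723 for Plekhf2 and Syap1, 0.744 for Tpst1 and Gm45244, -0.603 for Crym and Syap1, and 0.453 for Crym and Gm45244, opposite in sign to the value above. The other pairs were between -0.280 and 0.407, with 0.279 for Tpst1 and Crym.

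Among 13124 other genes with a mean log2 CPM over 1 in both cell types, those most like Plekhf2 over the 10 libraries were Rcc1l (r = 0.976), Ccnl2 (r = 0.961) and Prkca (r = 0.961). Crtc3 (r = 0.958) and Cited2 (r = 0.948) were among those most like Tpst1. Crym was closest to Sidt2 (r = 0.958), Bcl2l13 (r = 0.931) and Dync1h1 (r = 0.915), Syap1 to Higd1a (r = 0.955), Foxp1 (r = 0.936) and Brap (r = 0.936), and Gm45244 to Atg3 (r = 0.955), Pxk (r = 0.948) and Brap (r = 0.946). The log2 fold changes were 1.03 in MECs and 1.19 in macrophages for Rcc1l, 0.43 and 0.48 for Crtc3, and 1.10 and 0.99 for Brap, which is near 2 members. For Sidt2 they were -0.23 and -0.36, smaller than those of Crym. The likeness is over libraries that share genotype and depth, and is a description.

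No tested neighbor of the 5 genes met the condition that selected them. The condition held for only 2.69% of all genes tested in both cell types, so nothing is read from its absence among these neighbors. Within 500000 bases of each member there were 10 tested genes for Plekhf2, 21 for Tpst1, 11 for Crym, 5 for Syap1 and 12 for Gm45244, and 0 of them had the same sign in both cell types without overlap between genotypes. The median log2 fold change of these neighbors was between -0.08 and 0.05 in MECs and between 0.03 and 0.16 in macrophages. The nearest tested genes on either side were 2610301B20Rik (0.03 in MECs and -0.02 in macrophages) and Ndufaf6 (0.69 ± 0.32 and 0.13 ± 0.46, SE) for Plekhf2, and Crcp (0.08 and 0.40) and Kctd7 (-0.15 and 0.35) for Tpst1. They were Tmem159 (-0.13 and 0.10) and Uqcrc2 (0.02 and -0.08) for Crym, Txlng (-0.02 and 0.06) and Ctps2 (-0.26 and -0.12) for Syap1, and Slc25a4 (0.07 and 0.07) and Cenpu (-0.36 and -0.01) for Gm45244. Apart from Acsl1, the annotated overlaps were 2210412B16Rik within Tpst1 and Mir3473a within Syap1, with 1 and 2 counts over all libraries.

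**Figure D5:**
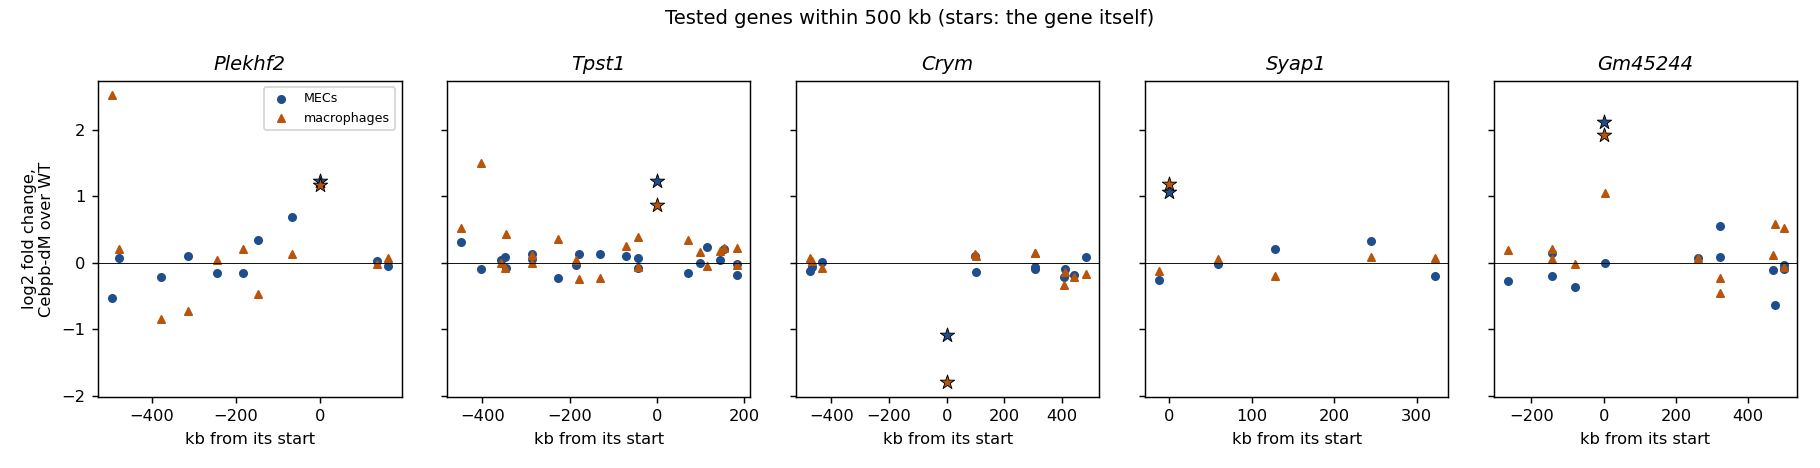
Log2 fold change of CebpbΔM over WT in MECs (blue) and macrophages (orange) of tested genes within 500000 bases of each of the 5 genes, against the distance of their start from that of the member in kb, positive downstream. Stars are the members. Neighbors lie between -0.63 and 0.69 in MECs and between -0.85 and 2.52 in macrophages, where Gm11831 near Plekhf2 is at 2.52 and Zfp11 near Tpst1 at 1.504. Acsl1, whose start lies 2553 bases downstream of that of Gm45244, is at 1.05 in macrophages.

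The pathways of the members were described by 6 lists with 79 genes besides Tpst1. In MECs 67 and in macrophages 73 of these were tested. By the QL test 0 passed in either cell type, while 3 and 9 had an unadjusted P under 0.05 (as had 5.42% and 8.63% of all genes tested), the likelihood ratio test called 0 and 0, and DESeq2 called 0 and 1. The median log2 fold change over all genes tested was -0.01 in MECs and 0.00 in macrophages.

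For tyrosine sulfation, the 6 enzymes and donor genes besides Tpst1 had a median log2 fold change of 0.03 in MECs and -0.03 in macrophages. Tpst2, the other tyrosylprotein sulfotransferase, had 0.19 ± 0.21 (SE) and -0.11 ± 0.22 (SE). The smallest P besides Tpst1 was that of Papss1, a PAPS synthase gene, in MECs (-0.24 ± 0.21, SE) and of Impad1, a phosphatase that clears the spent donor, in macrophages (-0.52 ± 0.21, SE). Between cell types 3 of the 7 genes were higher in macrophages and 2 lower, from 1.10 for Papss2 to -1.15 for Papss1 (edgeR adjusted P = 0.0249 and 8.60e-05). Papss2 thus differed in the direction of Tpst1 and Papss1 in the opposite one.

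Known targets of tyrosine sulfation, 8 receptors and ligands, were mostly macrophage genes, with all 8 higher in macrophages and 2 tested in MECs. Ccr2, the chemokine receptor with the widest difference, was listed at 0 counts in all 4 MEC libraries, where 3 counts are 0.111 to 0.119 CPM, and at a mean of 111 CPM in WT and 156 CPM in CebpbΔM macrophages. The median log2 fold change by genotype in macrophages was 0.50, and the smallest P was that of C3ar1, the C3a receptor (0.65 ± 0.18, SE, edgeR adjusted P = 0.480). The 15 macrophage markers had a median of 0.56 in the same libraries, and Cx3cr1 is on both lists. In MECs, Cxcr4 and Vtn had log2 fold changes of -0.03 and 0.13.

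Around Crym, 10 of 14 genes of thyroid hormone transport, conversion and receptors were tested. Their median log2 fold change was -0.16 in MECs and -0.10 in macrophages. Thra, a thyroid hormone receptor, had the smallest P in MECs (-0.48 ± 0.23, SE, edgeR adjusted P = 0.983) and Ncor1, a corepressor, in macrophages (-0.54 ± 0.16, SE, edgeR adjusted P = 0.498). Between cell types 4 were higher in macrophages, with Slc16a10, a transporter, the widest (1.995), and 2 were lower. Of 10 lysine breakdown enzymes, 8 were tested in each cell type, with medians of -0.10 and -0.10, and Dhtkd1 (-1.41 ± 0.57, SE) and Gcdh (-0.62 ± 0.20, SE) had the smallest P in MECs and macrophages. Between cell types 2 of these were higher in macrophages, led by Pipox (1.87), and 2 lower, led by Dlst (-0.90).

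Around Plekhf2, all 27 early endosome and PI3P genes were tested, with a median log2 fold change of -0.01 in MECs and 0.14 in macrophages. The smallest P in macrophages was that of Plekhf1, the paralog of Plekhf2 (0.80 ± 0.25, SE, edgeR adjusted P = 0.508), which had -0.09 ± 0.25 (SE) in MECs. In MECs it was that of Uvrag, a partner of the PI3-kinase Vps34 (0.65 ± 0.23, SE, edgeR adjusted P = 0.606), which had 0.43 ± 0.25 (SE) in macrophages. Between cell types 8 of the 27 were higher in macrophages and 4 lower. Plekhf1 was the lowest of them (-0.88, edgeR adjusted P = 0.00184), in the same direction as Plekhf2, and Wdfy2 the highest (1.73).

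Around Syap1, all 14 AKT and mTORC2 genes were tested, with medians of -0.08 in MECs and 0.00 in macrophages. Prr5l, whose protein binds mTORC2, had the smallest P in both cell types, at -0.48 ± 0.28 (SE, edgeR adjusted P = 0.9997) in MECs and 1.04 ± 0.26 (SE, edgeR adjusted P = 0.452) in macrophages. Akt1 had log2 fold changes of 0.05 and -0.40. Between cell types 5 were higher in macrophages, with Prr5 the widest (1.20), and 1 lower, Akt2 (-0.40).

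The 8 marker lists describe what else the libraries held beside the 5 genes. By the QL test 0 genes of any list passed for genotype in either cell type. Of the genes tested, an unadjusted P under 0.05 was found for 3 of 19 epithelial, 1 of 7 macrophage, 1 of 2 dendritic, 1 of 7 fibroblast and adipocyte and 1 of 5 erythroid genes in MECs, where 5.42% of all genes had such a P. In macrophages, where 8.63% of all genes did, it was found for 6 of 19 epithelial, 7 of 15 macrophage, 1 of 3 T and NK, 2 of 5 B and plasma, 3 of 8 dendritic and 1 of 5 erythroid genes. The likelihood ratio test called 2 in MECs (1 fibroblast and adipocyte, 1 erythroid) and 4 in macrophages (2 epithelial, 1 macrophage, 1 dendritic), and DESeq2 called the same numbers per list except for 2 macrophage and 2 B and plasma genes in macrophages. In macrophages the macrophage sum was 9140 and 10866 CPM in WT and 12220 to 17993 CPM in CebpbΔM, the dendritic sum 224 and 316 CPM against 355 to 651 CPM, and the B and plasma cell sum 174 and 183 CPM against 272 to 415 CPM, all without overlap, as for Plekhf2, Tpst1, Syap1 and Gm45244. The part of these cells in the macrophage result was not tested. The T and NK sum (5.72 and 8.71 CPM against 8.41 to 16.3 CPM), the fibroblast and adipocyte sum (7374 and 7075 CPM against 4350 to 8388 CPM) and the endothelial and pericyte sum (1804 and 1981 CPM against 1110 to 2461 CPM) overlapped. In MECs the T and NK sum was at most 1.05 CPM, the B and plasma sum at most 3.29 CPM, the dendritic sum 38.3 to 44.2 CPM, the fibroblast and adipocyte sum 5302 to 6462 CPM and the endothelial and pericyte sum 102 to 163 CPM.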

How the data were processed

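RNA from MECs and macrophages was made into libraries with the DNBSEQ Low Input Smart-Seq kit and sequenced as paired 150-bp reads. Per the file headers, the deposited values are raw counts of read pairs per gene, made by the authors with featureCounts 1.6.2 on Ensembl release 100 genes of GRCm38, with a mapping quality of 10 or more and reverse-strand counting. Trimmomatic and HISAT2 are named in the submitters' processing notes. The header of the MEC table names a library 2 of each genotype, for which the table has no count column.

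Genes under 300 nt, or with over 1 CPM in fewer than 2 libraries, were left out. The remainder were TMM-scaled and tested with edgeR 4.0.16 (glmQLFit, glmQLFTest) in R 4.3.3, with the 4 MEC libraries, the 6 macrophage libraries and, for cell type, all 10 in fits of their own, and Benjamini–Hochberg adjustment over all genes tested. The likelihood ratio test, which the authors used, was an alternative, since QL allows for uncertainty in each gene's variance. DESeq2 1.42.0, RLE scaling, other filters, a replicate block and leaving out each library were the others. SE was the fold change divided by the root of F. CPM values came from the fit of all 10 libraries. The steps were tested on simulated data. Library pairs of a group differed by far more than sampling noise, and none was counted as a duplicate. Depth sets a floor of 3 counts per library, for counting error only.

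The 5 genes and the gene lists were chosen with earlier results of these data known. Besides the 5, the text names, for each list, the gene of smallest P per cell type and the widest called cell type difference in each direction, the 3 genes most like each member, the 10 with the largest shared fold change, and overlapping and nearest genes. Some genes that this rule names are not reported here. Tpst2, Cxcr4, Akt1, Gm11831, Zfp11, Rprd1b and Lamp1 were named after their values were seen.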

Additional observations from a re-analysis of the deposited data

How the results depend on the processing

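For the 5 genes, 125 alternative genotype values kept their sign. The members were selected for no overlap between genotypes, which largely fixed the sign in advance, so nothing is read from this. Of the 125 values, 118 moved by less than 1 SD between libraries, and the other 7 came from leaving out CebpbΔM MEC 1, WT macrophage 4 or WT macrophage 5. The cause was not tested. The count of genes called for cell type stayed within 1.5 times of 8163, at 6517 to 8326 with each library left out in turn. Of 85 alternative cell type values of the 5 genes, 74 kept direction and side of the threshold. Plekhf2 and Tpst1 did so in all 17 each, whereas Crym and Syap1 lost the call in 4 each. Gm45244, with no call, changed sign in CebpbΔM libraries only (-0.0017) and without CebpbΔM MEC 3 (-0.13) or WT macrophage 5 (-0.30), and lay between -0.30 and 0.37 with each library left out.

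The count of 8 genes called in MECs was 179 by the likelihood ratio test, 161 by DESeq2, 38 with no filter beyond 1 count and 0 with all 10 libraries in a single fit. It was 2 to 337 with each library left out, with 337 without CebpbΔM 3, 98 without WT 1, 42 without CebpbΔM 1 and 2 without WT 3, where the lone library of a genotype was assumed to vary like the others. With RLE factors 6 of 6 calls were higher in CebpbΔM, against 7 of 8. The count of 0 in macrophages was 138 by the likelihood ratio test and 201 by DESeq2, and it was 0 to 0 with each library left out.

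When the fit included a replicate block, the count was 205 of 15698 genes in MECs and 12 of 17772 in macrophages. Of the 5 genes, 4 passed in MECs (all but Syap1) and 0 in macrophages, and their genotype values kept their sign. The members were selected on this contrast, so nothing is read from their number or sign. The numbers were not taken as pairs, and the block was not used, since nothing in the labels ties libraries by number. In MECs every library shares its number with a library of the other genotype, and in macrophages only 2 numbers are shared. Deviations of same-numbered libraries correlated at 0.106 in MECs and at 0.129 and -0.086 in macrophages. With 2 libraries per genotype, both MEC pairs have the same value by construction, so it cannot decide whether the numbers are pairs. With 2 WT libraries per cell type, the spread within a genotype is poorly known, and genes near 1 CPM such as Gm45244 in WT rest on 16 to 42 counts.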
